A study of Gallus gallus with 2 samples.

Results

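The nuclear genes of the mitochondrial respiratory chain were followed, complex by complex, in chicken DT40 cells without the histone variant H2A.Z. Members were chosen by gene symbol: those that start with NDUF, UQCR or ATP5, with SDH followed by A, B, C or D, or with COX followed by a digit, and CYC1. The choice used names alone, although earlier results of these data were known when it was made. It found 87 genes on 154 probe sets, of 13009 named genes on the array, and CYC1 itself had no probe set named here. A further 1 probe set, shared by COX7A2 and TMEM30A, was not used. Of the 87 genes, 64 encode subunits and 23 encode assembly or regulatory factors. Complex I had 33 subunit genes, complex II had 2, complex III had 8, complex IV had 8 and complex V had 13. The symbol of NDUFA4 names another complex than its known place, and that of COX7A2L reads as a subunit. NDUFA4 was counted in complex IV and COX7A2L, a supercomplex factor, with the assembly factors of complex IV.

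The respiratory chain sits in the inner mitochondrial membrane. Complexes I and II pass electrons from NADH and succinate to ubiquinone, complex III passes them on to cytochrome c, and complex IV hands them to oxygen. Complexes I, III and IV pump protons, and complex V, the ATP synthase, uses the gradient to make ATP. Most subunits are made from nuclear genes and imported, while a few central ones come from mitochondrial DNA and were not analysed here. Assembly factors insert flavin, haem, copper and iron-sulfur groups or hold partly built modules, and are not part of the finished enzyme. The roles given for single genes are known mainly from mammals.

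There were 2 arrays, 1 for each group, of RNA from DT40, a B cell line from the chicken bursa of Fabricius. The double knockout array came from a clone labelled as knocked out for H2A.Z-1 and H2A.Z-2, with H2A.Z-1 supplied by a transgene that tetracycline shuts off, sampled after 3 days of the drug. The wild-type array came from a wild-type clone, whose title names no tetracycline, while the treatment text given with both samples does. Whether the wild-type culture received the drug is unclear, and if it did not, drug and genotype cannot be told apart. Each group was 1 clone and 1 array without replicates; no test was possible, no difference has a replicate check, and precision is limited by having 2 arrays. H2A.Z-1, listed as H2AFZ, had a signal of 387 on the double knockout array and 27331 on the wild-type array. H2A.Z-2, listed as H2AZ2, had 17.6 on the double knockout array and 18244 on the wild-type array. B cell markers were present, with CD79B bright at 7718 on the double knockout array and 8827 on the wild-type array. IKZF1 had 1232 on the double knockout array and 3113 on the wild-type array. EBF1, the 1 that was higher on its brightest probe set, had 960 and 694 on the same arrays, while its other probe set was lower. T cell marker CD3D was bright too, at 4162 on the double knockout array and 12407 on the wild-type array, while CD4 and CD28 were under the floor on both. Of the marker lists, 5 of 6 measured B cell genes and 3 of 4 measured T cell genes were lower in the double knockout. At least 1.5-fold lower were 3 of the 6 B cell and 2 of the 4 T cell genes, beside 15.9% of all measured genes. Some of these rest on signals near the floor. CD3E had 8.5 on the double knockout array, under the floor, and 90.2 on the wild-type array, and PAX5 had 76.3 and 126. CD5, lower by less than 1.5-fold, was under the floor on the double knockout array too. In the other lists 2 of 5 myeloid and 2 of 4 fibroblast genes were measured, and 0 of 4 erythroid genes were. No probe set was named for the 4 erythroid genes or for the myeloid genes MPO and CD14, so their expression is not known here. The myeloid gene SPI1 had 1174 on the double knockout array and 2748 on the wild-type array, and the dim CSF1R had 106 and 65.7. The part of these markers in the results was not tested.

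Values are MAS5 signals, a brightness with no unit, and a gene has the value of its brightest probe set. Signals of different probe sets do not rank transcripts. Signals under a floor of 58.3, the median of all signals, were set to it. Genes whose signal passed the floor on either array counted as measured: 86 of the 87 members, COX7B being under it on both, and 9540 of all 13009 genes. Each ratio is log2 of the double knockout signal minus log2 of the wild-type signal, so negative values are lower in the double knockout, and a value given in brackets after a pair of signals is this ratio. In bulk RNA, fewer cells of a type and less RNA per cell cannot be told apart.

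Complex I had the lowest median ratio of the complexes. Of its 33 measured subunits, 25 were lower on the double knockout array and 8 were higher, with a median log2 ratio of -0.20. A lower lean was not particular to complex I among mitochondrial genes. Citrate cycle genes had 9 of 12 lower (median -0.18) and mitochondrial ribosomal proteins 41 of 64 (median -0.12). The 30 measured subunits of complexes II to V had 8 lower and 22 higher, with a median of 0.08. Of these 30 subunits, 22 had a mean signal over 10000, with 17 of them higher and 5 lower. Among all 504 genes that bright 370 were higher, with a median of 0.11, so the higher share was near that background. By complex the medians were 0.16 for complex II, -0.002 for complex III, 0.10 for complex IV and 0.09 for complex V. Over all measured genes the median was 0.02, and 48.5% were lower. The median of complex I minus that of complexes II to V was -0.28, a difference in which a single scaling factor per array cancels. Median centring, which gave the arrays equal medians over the probe sets above the floor on both, moved the median of all genes to 0.16. Complex I is therefore best read against all genes, at -0.22 as deposited and -0.21 after centring. The counts below 0 moved with the scaling in complex I too, with 21 of 33 lower after median centring, 27 after quantile normalization and 26 after loess. Complex III had 2 of 8 subunits lower after median centring and 6 after quantile normalization or loess. Complex V had 1 of 13 lower after median centring, 5 after quantile normalization and 6 after loess.

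**Figure D1:**
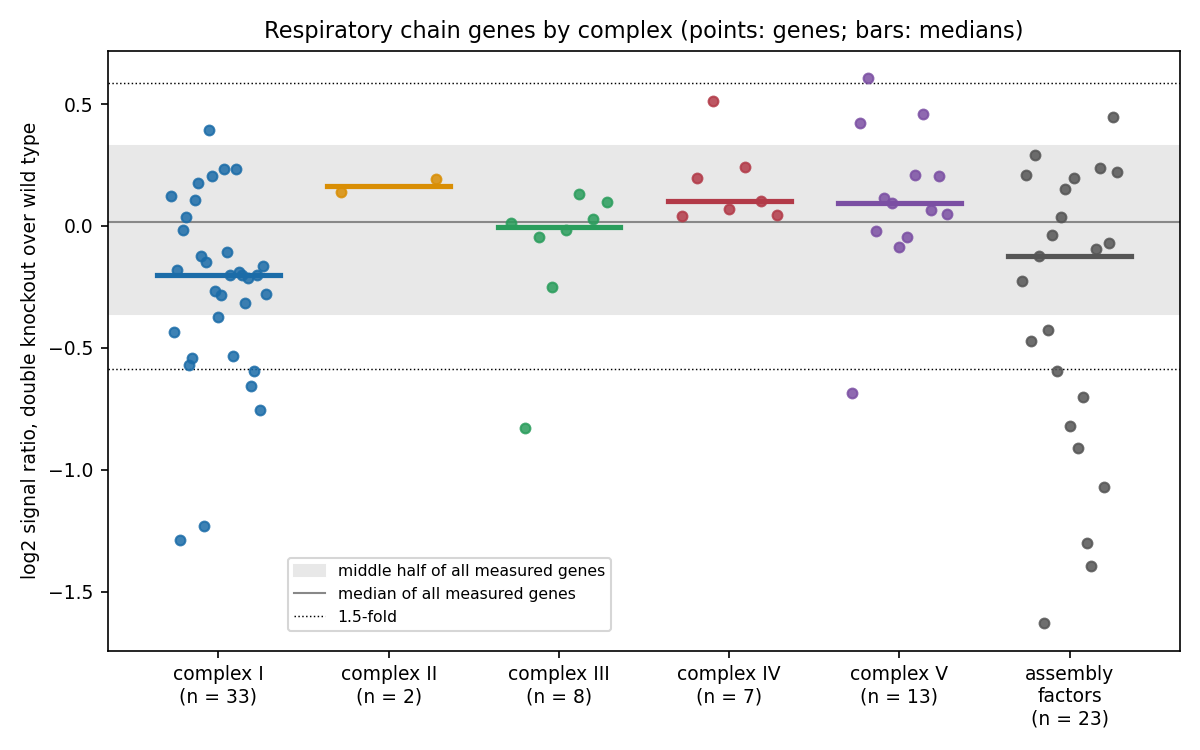
Log2 signal ratio of each measured member, double knockout over wild type, by complex; points are genes, coloured bars are medians, the grey band holds the interquartile range of all measured genes and dotted lines mark 1.5-fold. The bar of complex I lies at -0.20, below the bars of complexes II to V, and the assembly factors reach down to -1.63.

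Of the 63 measured subunits, 7 were at least 1.5-fold lower and 1 was at least 1.5-fold higher. Among all measured genes 15.9% were at least 1.5-fold lower and 12.6% at least 1.5-fold higher, beside 11.1% and 1.59% of the subunits. Among the 3767 genes in the brightness range of the subunits the shares were 10.6% lower and 8.63% higher, so the lower share of the subunits was near that background. Of all genes past 1.5-fold 55.9% were lower, and 39.2% after median centring. Complex I held 5 of the 7 lower ones, or 15.2% of its subunits, which is near the background of all genes. Among the 2198 measured genes in the brightness range of complex I, which runs from the 10th to the 90th percentile of its subunits, 8.19% were at least 1.5-fold lower and 45.7% were below 0, while 75.8% of complex I subunits were below 0.

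The catalytic core of complex I lies in the matrix arm, where NADH is oxidised and electrons run along iron-sulfur clusters to ubiquinone. Of 6 measured core genes 5 were lower, with a median of -0.16 and none past 1.5-fold. NDUFV2, an iron-sulfur subunit next to the NADH site, had signals of 3629 on the double knockout array and 5289 on the wild-type array, a log2 ratio of -0.54. NDUFS1, which carries several clusters, had 9655 on the double knockout array and 11625 on the wild-type array (-0.27), and its other 2 probe sets gave -0.37 and -0.39. All 3 probe sets of NDUFS1 were thus lower by similar amounts. NDUFS3 had 786 on the double knockout array and 911 on the wild-type array (-0.21), and NDUFS7, which holds the last cluster before ubiquinone, had 6294 and 6785 on the same arrays (-0.11). NDUFV1, the flavin-binding subunit that takes electrons from NADH, had 8026 on the double knockout array and 8112 on the wild-type array, which is almost level. NDUFS8 was the exception, with 5168 on the double knockout array and 4390 on the wild-type array, a ratio of 0.24.

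Accessory subunits of the matrix arm, which wrap and stabilise the core, had 8 of 9 lower and a median of -0.28. NDUFV3, at the flavin end, had 1933 on the double knockout array and 4529 on the wild-type array, 2.34-fold lower. NDUFS4, whose loss causes Leigh syndrome in humans, had 302 on the double knockout array and 476 on the wild-type array, 1.58-fold lower. These were the accessory matrix subunits past 1.5-fold, both with 1 measured probe set. NDUFA5 stood just short of 1.5-fold, with 1567 on the double knockout array and 2329 on the wild-type array, 1.49-fold lower. NDUFS6 had 10728 on the double knockout array and 13905 on the wild-type array (-0.37), with its other measured probe set at -0.60. The remaining members of this arm lay closer to 0, with NDUFA12 at -0.28, NDUFA6 at -0.20, NDUFA2 at -0.18 and NDUFA9 at -0.15, whose second probe set was under the floor on the double knockout array (-0.89, a bound). Dim probe sets of NDUFA12 gave 0.16 and 0.11, the last under the floor on the wild-type array. NDUFA7 was higher by little, at 0.04, with other probe sets at 0.18 and -0.04.

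Accessory subunits of the membrane arm, which surround the proton channels, had 12 of 17 lower and a median of -0.20. NDUFB10 had the lowest ratio of any subunit, with 3230 on the double knockout array and 7894 on the wild-type array, 2.44-fold lower. NDUFB9 had 6739 on the double knockout array and 11382 on the wild-type array, 1.69-fold lower. NDUFS5, on a dim probe set, had 113 on the double knockout array and 170 on the wild-type array, 1.51-fold lower. Each of these had 1 measured probe set. Between 1.2-fold and 1.5-fold lower were NDUFA1 (-0.53), NDUFB6 (-0.43), NDUFB4 (-0.32) and NDUFA8 (-0.28). NDUFB4 had another probe set at -0.40 and a dim one that passed the floor on the double knockout array alone, at 1.06. NDUFB8 (-0.20), NDUFB2 (-0.20), NDUFA10 (-0.19), NDUFB1 (-0.17) and NDUFB3 (-0.12) were lower by less.

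The 5 membrane arm subunits on the other side were NDUFA13, NDUFB7, NDUFA11, NDUFC2 and NDUFB5. NDUFA13, also known as GRIM-19, had the highest ratio of complex I, with 3527 on the double knockout array and 2685 on the wild-type array (0.39), and its other probe set gave 0.31. NDUFB7 followed at 0.23, NDUFA11 at 0.21 with all 3 measured probe sets above 0, NDUFC2 at 0.18 and NDUFB5 at 0.12. NDUFAB1, the mitochondrial acyl carrier protein that sits in both arms and also serves lipoic acid synthesis, had 16583 on the double knockout array and 15399 on the wild-type array (0.11). The lower ratios of complex I were therefore found in both arms and in core and accessory subunits, with exceptions in each.

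**Figure D2:**
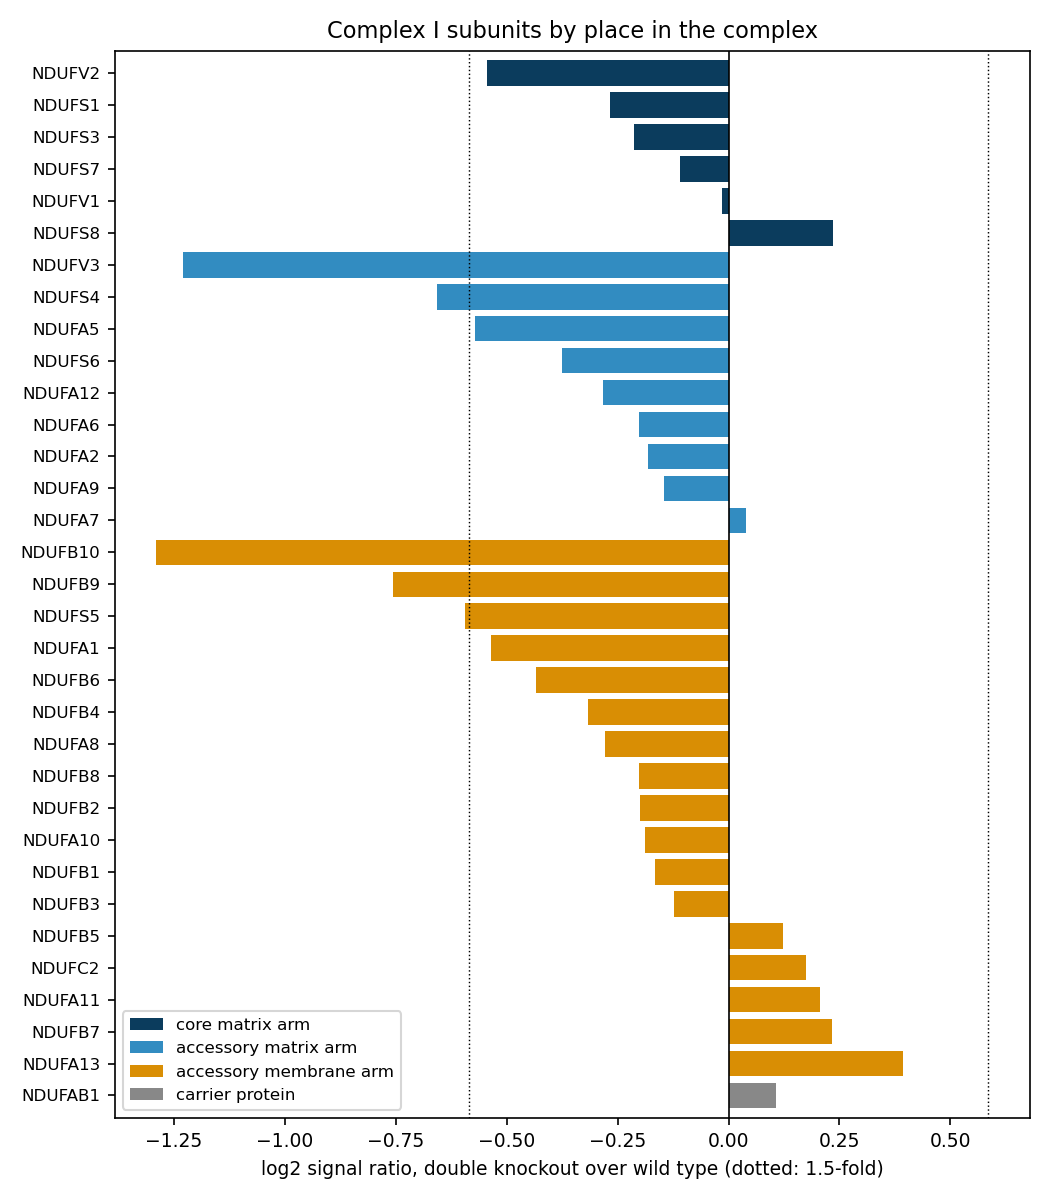
Log2 signal ratio of each measured complex I subunit, double knockout over wild type, as bars that start at 0 and are coloured by place in the complex; dotted lines mark 1.5-fold. Bars to the left are lower in the double knockout; NDUFB10 (-1.29) and NDUFV3 (-1.23) reach farthest, and 8 subunits point to the right.

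Complex II, succinate dehydrogenase, which belongs to the citrate cycle as well, was measured through SDHA and SDHD, while SDHB and SDHC were not analysed here. SDHA, the flavoprotein that oxidises succinate, had 17937 on the double knockout array and 16309 on the wild-type array (0.14). SDHD, a membrane anchor, had 14504 on the double knockout array and 12702 on the wild-type array (0.19). Both were slightly higher on the double knockout array at the deposited scale, but SDHA was at -0.023 after quantile normalization.

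Complex III, the cytochrome bc1 complex, had 4 of 8 subunits lower and 4 higher. The hinge protein, listed as UQCRHL, had 23517 on the double knockout array and 21477 on the wild-type array (0.13), and UQCRQ had 11861 and 11076 on the same arrays (0.10). UQCR11 (0.03) and UQCR10 (-0.02) were near 0. UQCRFS1, the Rieske iron-sulfur protein, had 6189 on the double knockout array and 7370 on the wild-type array (-0.25), with another probe set at -0.04.

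Probe sets disagreed in other complex III genes. UQCRC1, a core protein, had 12361 on the double knockout array and 12771 on the wild-type array on its brightest probe set (-0.05). Its other measured probe set had 2232 on the double knockout array and 4709 on the wild-type array (-1.08). UQCRC2, the other core protein, showed the same split, with 11426 on the double knockout array and 11338 on the wild-type array (0.01) against 1914 and 3885 on a dimmer probe set (-1.02). UQCRB, a small ubiquinone-site subunit, had 736 on the double knockout array and 1307 on the wild-type array, 1.78-fold lower, but its other probe sets gave 0.71 and 0.48. No direction can be given for UQCRB, and the near-level values of UQCRC1 and UQCRC2 hold for the brightest probe set alone.

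Complex IV, cytochrome c oxidase, had all 7 measured subunits higher on the double knockout array, none of them by 1.5-fold. COX8A had 7892 on the double knockout array and 5526 on the wild-type array, 1.43-fold higher. COX7C had 16039 on the double knockout array and 13582 on the wild-type array (0.24), with its other probe set at 0.50, and COX6A1 was at 0.20 with its other at 0.34. COX4I1, which contacts both mitochondrial core subunits, had 20008 on the double knockout array and 19384 on the wild-type array (0.05). COX5A had 1426 on the double knockout array and 1388 on the wild-type array (0.04). NDUFA4, with 25283 on the double knockout array and 23554 on the wild-type array (0.10), and COX6C (0.07) lay in between. After a loess correction of the trend with brightness, 3 of the 7 were below 0, and after quantile normalization 1 was, so the shared direction depended on the scaling.

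Complex V had 9 of 13 subunits higher and 4 lower. The catalytic beta subunit, ATP5B, had 22087 on the double knockout array and 19136 on the wild-type array (0.21). The alpha subunit on chromosome Z, ATP5F1AZ, had 17577 on the double knockout array and 17002 on the wild-type array (0.05). The reference also lists a copy on chromosome W, ATP5F1AW, and the signal of each copy cannot be told apart here. The gamma subunit ATP5C1, the turning shaft, had 11893 on the double knockout array and 12616 on the wild-type array (-0.09), with its other probe set at -0.12. These 3 parts of the catalytic head were within 1.2-fold.

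In the membrane part and the stalks of complex V, the c-ring gene ATP5G3 had 32229 on the double knockout array and 27887 on the wild-type array (0.21), and ATP5G1 was at 0.07. The ATP5G genes encode the same mature protein in mammals. Whether their probe sets detect each other's transcripts was not tested. ATP5I, the e subunit, had 19958 on the double knockout array and 14901 on the wild-type array, 1.34-fold higher. The stalk subunits ATP5O (0.09), ATP5H (-0.02) and ATP5PB (-0.04) were close to 0, although other probe sets of ATP5O ran from -0.20 to 0.23. ATP5E, the epsilon subunit, had 198 on the double knockout array and 318 on the wild-type array, 1.61-fold lower on 1 dim probe set. It stayed past 1.5-fold in 4 of 9 alternatives and was at -0.053 with the floor at the 75th percentile of all signals.

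Dim probe sets carried the other outlying values of complex V. ATP5J2, the f subunit, had 273 on the double knockout array and 198 on the wild-type array (0.46), with 3 other measured probe sets at 1.34, -0.07 and -0.12. ATP5J, factor F6, had 88.7 on the double knockout array and was under the floor on the wild-type array, at least 1.52-fold higher, while its other measured probe set gave -0.18. It was the only subunit past 1.5-fold on the higher side, and its probe sets disagreed in direction. ATP5G2 stood near the floor on both arrays.

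**Figure D3:**
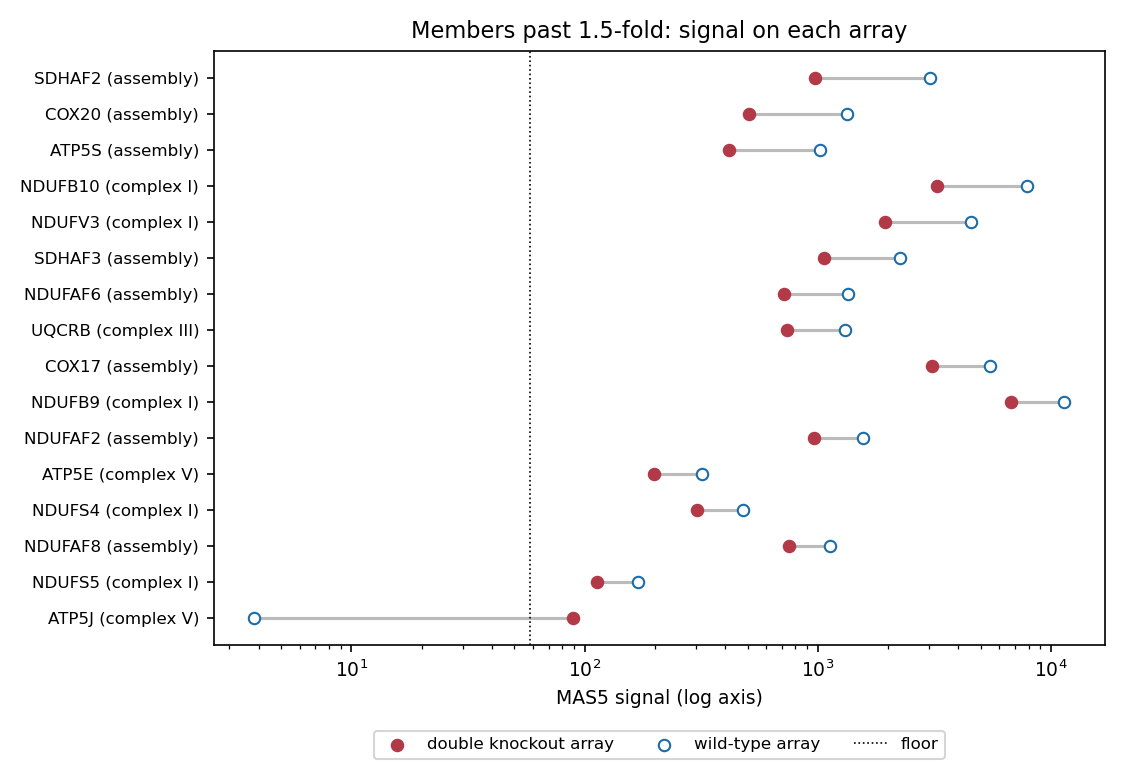
MAS5 signal, on a log axis, of the 16 members past 1.5-fold; filled red points are the double knockout array, open blue points the wild-type array and the dotted line is the floor. In 15 genes the filled point lies to the left, from 1.51-fold for NDUFS5 to 3.10-fold for SDHAF2, and ATP5J, the exception, is under the floor on the wild-type array.

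Assembly factors held the lowest ratios of all members. Of 23 measured, 15 were lower and 8 higher, with a median of -0.12 (0.030 after median centring), and 8 were at least 1.5-fold lower (34.8%) and none at least 1.5-fold higher. Among the 3261 genes in their brightness range 15.1% were at least 1.5-fold lower and the median was -0.02. No p-value was computed, since genes are not replicates.

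Complex II factors lay on both sides. SDHAF2, which attaches the flavin to SDHA, had 973 on the double knockout array and 3012 on the wild-type array, 3.10-fold lower. Its other probe sets had 827 and 291 on the double knockout array and 2761 and 808 on the wild-type array, so that all 3 lay between -1.74 and -1.47. SDHAF3, which helps load iron-sulfur clusters into SDHB, had 1065 on the double knockout array and 2239 on the wild-type array, 2.10-fold lower. SDHAF1, in the same step, had 692 on the double knockout array and 594 on the wild-type array (0.22), and SDHAF4, which binds flavinylated SDHA, was at 0.15. The enzyme's own genes SDHA and SDHD were near level beside a 3.10-fold lower SDHAF2.

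Complex IV factors had 7 of 10 lower. COX20, a chaperone of the mitochondrial subunit COX2, had 506 on the double knockout array and 1332 on the wild-type array, 2.63-fold lower. COX17, the copper chaperone that supplies the enzyme's copper centres, had 3080 on the double knockout array and 5446 on the wild-type array, 1.77-fold lower. COX16 (-0.47), COX7A2L (-0.43), the haem A synthase COX15 (-0.23) and the membrane insertase COX18 (-0.12) were lower by less, and COX14 was at -0.04. COX11, which passes copper to the COX1 subunit, was at 0.24 and COX19 at 0.04 with another probe set at -0.67. COX10, the haem O synthase, had 1147 on the double knockout array and 842 on the wild-type array (0.45), yet its other 2 probe sets gave -0.79 and -0.88, the last being a bound since the signal was under the floor on the double knockout array.

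Complex I factors had 5 of 8 lower, 3 of them past 1.5-fold. NDUFAF6 had 714 on the double knockout array and 1342 on the wild-type array, 1.88-fold lower. NDUFAF2, which helps to join the NADH-oxidising module, had 961 on the double knockout array and 1562 on the wild-type array, 1.62-fold lower. NDUFAF8, which stabilises NDUFAF5, had 748 on the double knockout array and 1132 on the wild-type array, 1.51-fold lower. NDUFAF5 itself, which hydroxylates NDUFS7, was at 0.21 and NDUFAF7, another assembly factor, at 0.19. NDUFAF3 was at 0.29, its partner NDUFAF4 at -0.09 and NDUFAF1, with 8588 on the double knockout array and 9015 on the wild-type array, at -0.07. Dimmer probe sets of NDUFAF4 ran from -0.08 to 0.44. ATP5S, a coupling factor linked to the ATP synthase, had 416 on the double knockout array and 1023 on the wild-type array, 2.46-fold lower.

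How far probe sets of a gene agree sets a scale for these values. In 2237 genes with exactly 2 probe sets, each over the floor on both arrays, the log2 ratio of a probe set had an SD of 0.42 around that of its gene. This spread holds probe and isoform differences, not the error between cultures. Of the 86 measured members 60 lay within 1 SD of 0, and 7 were lower by more than 2 SD (0.83). These were SDHAF2, COX20, ATP5S, NDUFB10, NDUFV3, SDHAF3 and NDUFAF6. None was higher by as much. Of these 7, SDHAF2 alone had more than 1 measured probe set. The share of all measured genes past this mark, lower or higher, was not computed. Neither the 7 nor the lack of higher members therefore has a background beside it. Over all measured genes the log2 ratio itself had an SD of 0.71 under a mean signal of 1000 and 0.57 between 1000 and 5000. Among the 30 members with more than 1, the distance between the lowest and the highest ratio had a median of 0.28, and in 17 all probe sets lay on the same side of 0.

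**Figure D4:**
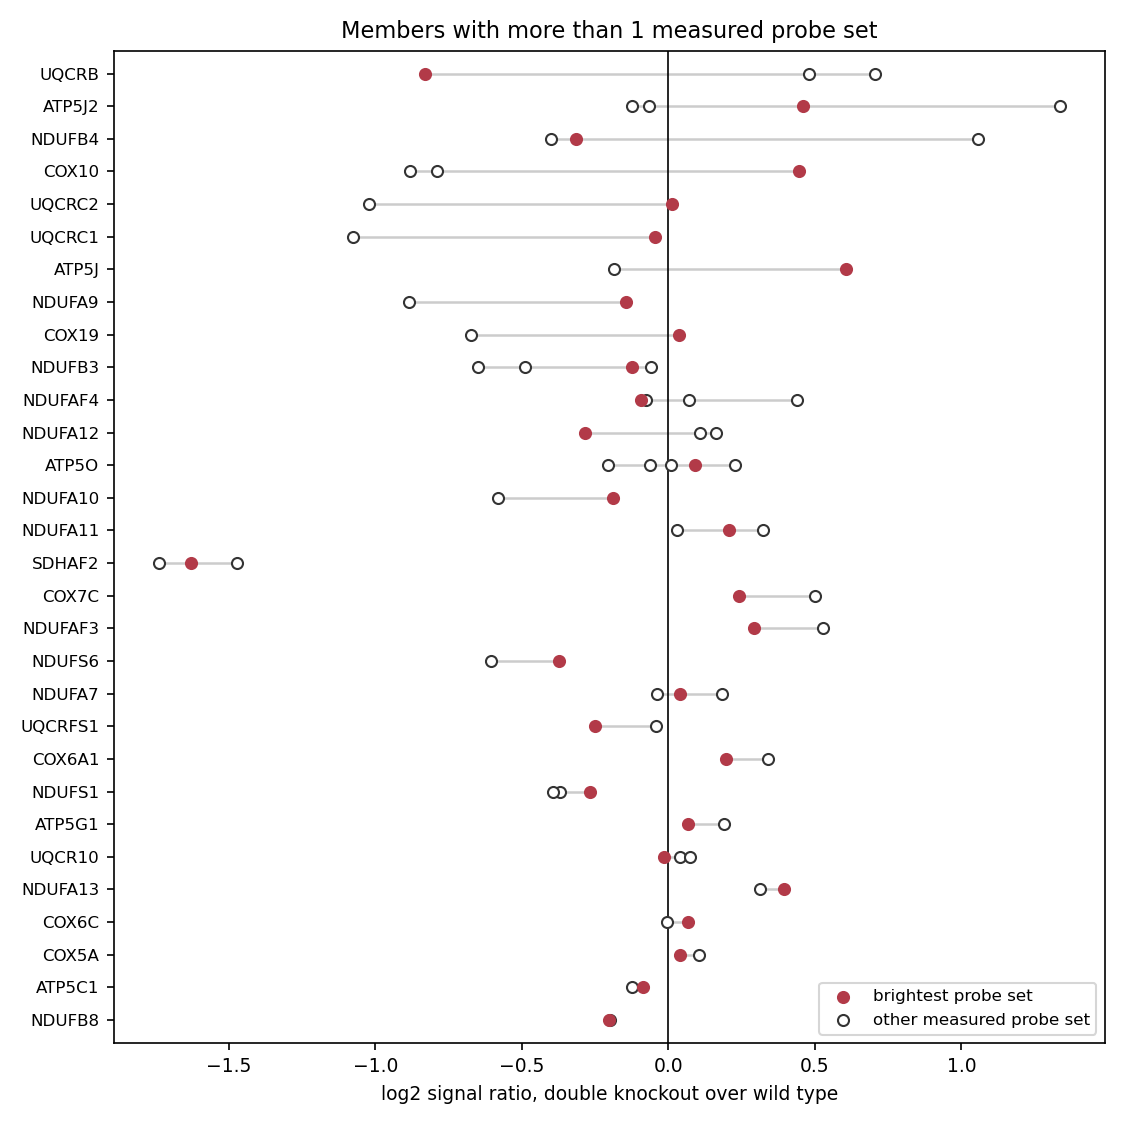
Log2 signal ratio, double knockout over wild type, of every measured probe set of the 30 members with more than 1; filled points are the brightest probe set of the gene, open points the others, and genes are ordered by the distance between extremes. UQCRB, ATP5J2, NDUFB4 and COX10 spread across 0, while the 3 probe sets of SDHAF2 lie together near -1.63.

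Brightness differed between the complexes, and ratios of bright genes spread less. Among all measured genes with a mean signal over 10000, the SD of the log2 ratio was 0.23 and the median 0.11, against 0.71 and -0.01 for genes under 1000. Of the subunits of complexes II to V, 22 of 30 were over 10000, with a median ratio of 0.08. In complex I 7 of 33 were, with a median of -0.20 and 4 lower, while 134 of all 504 such genes were lower. Between 5000 and 10000, 10 of 12 complex I subunits were lower (median -0.16), against 264 of 635 genes (median 0.08). Between 1000 and 5000, 8 of 11 were lower (median -0.20), against 1269 of 2561 genes (median 0.01). All 3 complex I subunits under 1000 were lower, against 2960 of 5840 genes. The median of complex I was thus below 0 in every brightness class, on 3 to 12 genes in each. Over 10000 the interquartile range of complex I ran from -0.28 to 0.14. The part of brightness in the lower median was not tested. No assembly factor was over 10000.

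**Figure D5:**
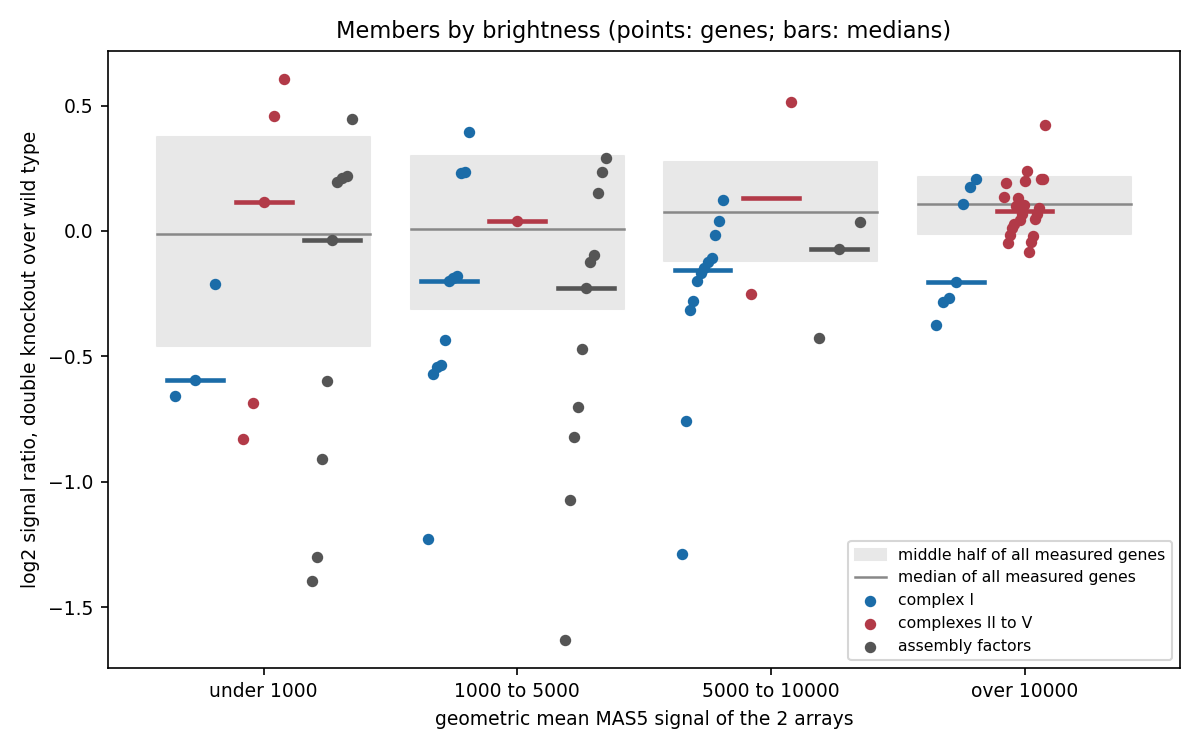
Log2 signal ratio of each measured member, double knockout over wild type, in 4 classes of mean signal; points are genes, coloured bars are medians, and grey bands and lines give the interquartile range and median of all measured genes in the class. Above 10000 the complexes II to V cluster around 0.08, inside the grey band, while the bar of complex I lies at -0.20.

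RNA quality controls differed between the arrays. The ratio of 3′ to 5′ signal was 1.95 on the double knockout array and 1.13 on the wild-type array for actin, 1.46 on the double knockout array and 1.23 on the wild-type array for the elongation factor EF1A, and 1.07 on the double knockout array and 1.03 on the wild-type array for GAPDH. The part of this in the ratios of members was not tested.

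Position was a property that the choice of members did not use, though it overlapped with complex. On chromosome 2, 6 of 9 measured members were lower, with a median of -0.54, beside -0.08 for all 790 measured genes there. At least 1.5-fold lower were 4 of the 9, beside 15.9% of all measured genes, and the share of all genes on chromosome 2 was not computed. These were NDUFB9, SDHAF3, NDUFAF6 and the brightest probe set of UQCRB, whose other probe sets were higher. On chromosome 5, 7 of 8 members were lower (median -0.19, all genes 0.04), and on chromosome 1, 9 of 12 were (median -0.20, all genes 0.00007). The other chromosomes with at least 5 members were 3, 14, 28 and Z. Higher were 3 of 6 members on chromosome 3 and 4 of 6 on chromosome 14. Higher too were 4 of 5 on chromosome 28 and 3 of 5 on chromosome Z. Their medians were 0.03, 0.02, 0.04 and 0.05, beside -0.03, 0.005, 0.06 and 0.04 for all genes there, in that order. On chromosome Z, 2 of the 5 members were at least 1.5-fold lower and none as much higher. At least 1.5-fold lower were also 2 of 8 on chromosome 5, 2 of 12 on chromosome 1, and 1 of 6 on each of chromosomes 3 and 14. On chromosome 28 none was, and 1 member on chromosome 1 was as much higher. The share of all genes on each of these chromosomes was not computed. Complex I subunits made up 8 of the 12 members on chromosome 1 and 4 of the 5 on chromosome 28, and all 6 on chromosome 3 were assembly factors. The 8 on chromosome 5 were 4 complex I subunits and 4 assembly factors, and the 9 on chromosome 2 included 3 and 2 of these. The part of position apart from complex was not tested. Of the 4 pairs of members with few genes between them, NDUFAF6 and UQCRB (its brightest probe set) were both lower, as were NDUFB4 and COX17. NDUFA11 (0.21) was higher beside a near-level NDUFA7 (0.04, with another probe set at -0.04), and SDHA (0.14) and NDUFS6 (-0.37) went opposite ways.

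Other mitochondrial lists were set beside the chain. Mitochondrial ribosomal proteins, which translate the mitochondrial subunits, had 41 of 64 measured genes lower, with a median of -0.12, and 9 (14.1%) at least 1.5-fold lower, near the 15.9% of all genes. MRPL47, at -1.73, and MRPS14, at -1.54, were the lowest. Assembly factors with other names, a list that also held CYCS, had 14 of 18 lower, with a median of -0.35, and 8 (44.4%) at least 1.5-fold lower, beside 15.9% of all genes. Among these were LRPPRC, which stabilises mitochondrial mRNA and had 153 on the double knockout array and 452 on the wild-type array, TIMMDC1, a complex I factor (-1.22), and SURF1, a complex IV factor (-0.98). All had mean signals under 5000. Of all genes, 20.1% under 1000 and 12.2% between 1000 and 5000 were at least 1.5-fold lower. Probe sets disagreed in direction for NUBPL (-0.75 on the brightest, up to 0.09), ATPAF1 (-0.77, up to 0.22) and LYRM7 (-0.20, up to 1.29). UQCC1 and ACAD9 were higher on the brightest probe set and had another below 0. The electron carrier cytochrome c, CYCS, had 21371 on the double knockout array and 19070 on the wild-type array (0.16), with another probe set at -0.23.

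Citrate cycle genes, with pyruvate dehydrogenase, had 9 of 12 lower and a median of -0.18, with both probe sets of SUCLA2 lower (-0.80 on the brighter). Probe sets of OGDH (-1.01 on the brighter, 0.50), MDH2 (-0.22, 0.16) and IDH3B (-0.02, 0.31) disagreed in direction. So did those of IDH3A and DLD, which were higher on the brightest. DLAT, among the lower ones, was under the floor on the double knockout array. Glycolytic genes had 12 of 14 higher and a median of 0.31. The highest were PFKL (1.74) and ENO2 (1.67), each on 1 measured probe set with signals under 1000. GPI, PFKP, GAPDH and ENO1 were higher on the brightest probe set and had another below 0. Many genes of this list had signals over 10000, a class in which 370 of all 504 genes were higher. Among regulators of respiratory genes 6 of 10 were lower, with a median of -0.04. TFAM, which packs mitochondrial DNA and helps its transcription, was at -0.07 on its 1 measured probe set. The probe sets of NRF1 (-0.47 on the brightest, 0.51 on the other), TFB1M (-0.63, up to 0.35) and the mitochondrial RNA polymerase POLRMT (0.71, and -0.31) disagreed in direction. GABPA was at 0.005, with its probe sets reaching down to -1.06. PPARGC1A was under the floor on both arrays.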

How the data were processed

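Biotinylated RNA was measured on Affymetrix chicken arrays with 1 colour. The deposited table gives a linear intensity for each probe set on each array; per the submitters' processing notes the tool was MAS5. The sources used here name no version, scaling target or detection calls. After trimming 2% at either end, the mean signal was 499.9 on both arrays. Of 38535 probe sets the platform annotation named 1 gene for 27178, several for 177 and none for 11180. Of the 87 members, 86 were found by gene ID in the GRCg7b reference, used for chromosomes and gene order only, and NDUFB7 was not.

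From the deposited values, signals under the floor (50th percentile, 58.3) were set to it, log2 was taken, and the probe set of highest mean stood for its gene. Groups came from the genotype labels. No test was made. Brightness ranges ran from the 10th to the 90th percentile of each set. Subunits and factors were assigned from a hand-written table of known roles. Named genes were, in each complex, the 2 highest and 2 lowest ratios, all past 1.5-fold, the brightest, the catalytic core and those whose probe sets passed 1.2-fold both ways; other members were added after their values were seen. The members and lists were chosen with earlier results of these data known. The computation was tested on simulated data. The 9 alternatives were 3 scalings, 2 floors, 2 treatments of low signals and 2 choices of probe set. Promoter sequences were not analysed here. Python 3.11.15, pandas 2.3.3 and statsmodels 0.14.6 were used.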

Additional observations from a re-analysis of the deposited data

How the results depend on the processing

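The gap between complex I and complexes II to V kept its sign under all 9 alternatives, from -0.32 to -0.24. Median centring moved the median of all measured genes to 0.16 and the share of lower among the 1.5-fold calls to 39.2%, with 55.9% on the deposited scale. Under it the medians were -0.049 for complex I, 0.32 for complex II, 0.15 for complex III, 0.25 for complex IV, 0.24 for complex V and 0.030 for assembly factors, with 4 subunits lower, 3 subunits higher and 1 assembly factor higher at 1.5-fold. Relative to all genes, complex I then stood at -0.21 and assembly factors at -0.13. Quantile normalization gave 0.044 for complex II and 2 higher subunits. Loess (span 0.3) and the pseudocount each left 4 lower subunits. The median over all probe sets gave 0.034 for complex III and -0.32 for assembly factors. Without probe sets of shared type (names ending in _s_at, _x_at or _a_at) complex III was at 0.011 and complex IV at 0.34, with 2 subunits higher. Complex IV then had 5 measured genes. Of these COX6A1, COX6C and COX7C stood on dim probe sets, with 168, 280 and 171 on the double knockout array. The 1 higher subunit, ATP5J, dropped out (0 higher) at either other floor, above the floor on both arrays, with the pseudocount and with the median over probe sets. ATP5J turned to -0.18 both with a floor at the 25th percentile and where both arrays had to pass the floor, and to -0.10 with the pseudocount. UQCRB turned to 0.48 with the median over probe sets and to 0.71 without shared probe sets. Beyond what fewer probe sets or another floor explain by construction, the cause was not tested. Assembly factors at least 1.5-fold lower numbered 6 to 9, under alternatives added for them after seeing the data. NDUFB10, NDUFV3, NDUFB9, SDHAF2, COX20 and ATP5S stayed past 1.5-fold lower in all 9, and SDHAF3, NDUFAF6 and COX17 in the 8 that measured them. Apart from SDHAF2, each of these genes had 1 measured probe set, with signals well above the floor. For them the other floors, the need to pass the floor on both arrays and the probe set choices could not change a measured value. The scalings and the pseudocount were the alternatives that could move them. NDUFAF2 stayed past 1.5-fold lower in 8 of 9, NDUFS4 and NDUFAF8 in 5 of 9, ATP5E in 4 of 9 and NDUFS5 in 4 of 8, all keeping their sign. No paired analysis was possible because each group had 1 array. NDUFS5, ATP5G2 and ATP5J rest on signals near the floor.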
